A study of Mus musculus with 6 samples.

Results

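The genes described here serve the presentation of antigen on major histocompatibility complex (MHC) class II. They comprise the regulator Ciita, the class II chains H2-Aa, H2-Ab1 and H2-Eb1, the peptide-loading chains H2-DMa and H2-DMb1, the invariant chain Cd74, and the co-stimulatory genes Cd80, Cd86 and Cd40. Members were the peaks that the deposited annotation assigned to these 10 gene names in 6 peak lists, which gave 101 of 134964 peaks. Merging peaks that touched gave 40 regions of 60847, and 9 of the 10 genes had at least 1 peak. H2-DMa had 0 peaks in all 6 lists.

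Class II molecules are pairs of an α and a β chain that show peptides from the endosomes of antigen-presenting cells to CD4+ T cells. The transactivator CIITA is recruited to a conserved promoter module by the RFX, NF-Y and CREB factors and sets how much class II is made, while CD74 guards the peptide groove and H2-DM exchanges its remnant for peptide. CD80 and CD86 engage CD28 on the T cell, and CD40 receives the T cell's CD40 ligand.

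Binding of C/EBPα, IRF8 and JUNB was mapped by chromatin immunoprecipitation and sequencing (ChIP-seq) in bone marrow-derived macrophages (BMDMs) of wild-type mice aged 8 to 12 weeks. Per the study's methods, the strains were kept on a C57BL/6 background. Marrow cells were grown for 6 days with L929 supernatant, a source of M-CSF, and control cells had no IL-4 while the others were exposed to 20 ng/ml of IL-4 for 1 h. IL-4 acts through the transcription factor STAT6, and the comparison asks whether binding of these macrophage factors differed soon after the cytokine. With 1 sample per factor and condition, no value below has a replicate and no difference between conditions can be set against the spread between cultures. The control and IL-4 lists numbered 24486 and 24612 peaks with the C/EBPα antibody, 37525 and 42076 with that against IRF8, and 3940 and 2325 with that against JUNB. Their sequencing depth is unknown. The files hold no expression, so the cell type could be read only from bound loci. Over the 6 lists, 39 peaks carried the name Csf1r (the M-CSF receptor), 28 Emr1 (the older symbol of Adgre1), 19 Itgam, 11 Sfpi1 (the older symbol of Spi1) and 7 Cd68.

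The deposited peak score is a number by which the caller ranks peaks. Its unit is not given in the sources used here and may be a log significance, so a fold of 2 scores is a ratio of such numbers and not a fold of bound protein. Such a score rises with depth. Each score was therefore read beside the percent of peaks in its own list that scored lower. Member peaks numbered 23 (control) and 21 (IL-4) in the C/EBPα lists, 28 and 27 in the IRF8 lists, and 1 and 1 in the JUNB lists. The median C/EBPα member peak scored 8.67 and 8.83, below the medians of the whole lists (11.195 and 11.22), whereas the median IRF8 member peak scored 15.41 and 16.98, above the list medians of 10.34 and 9.61. Among the IRF8 member peaks, 5 in control and 6 after IL-4 scored above 90% of their list, compared with 1 and 1 for C/EBPα.

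**Figure D1:**
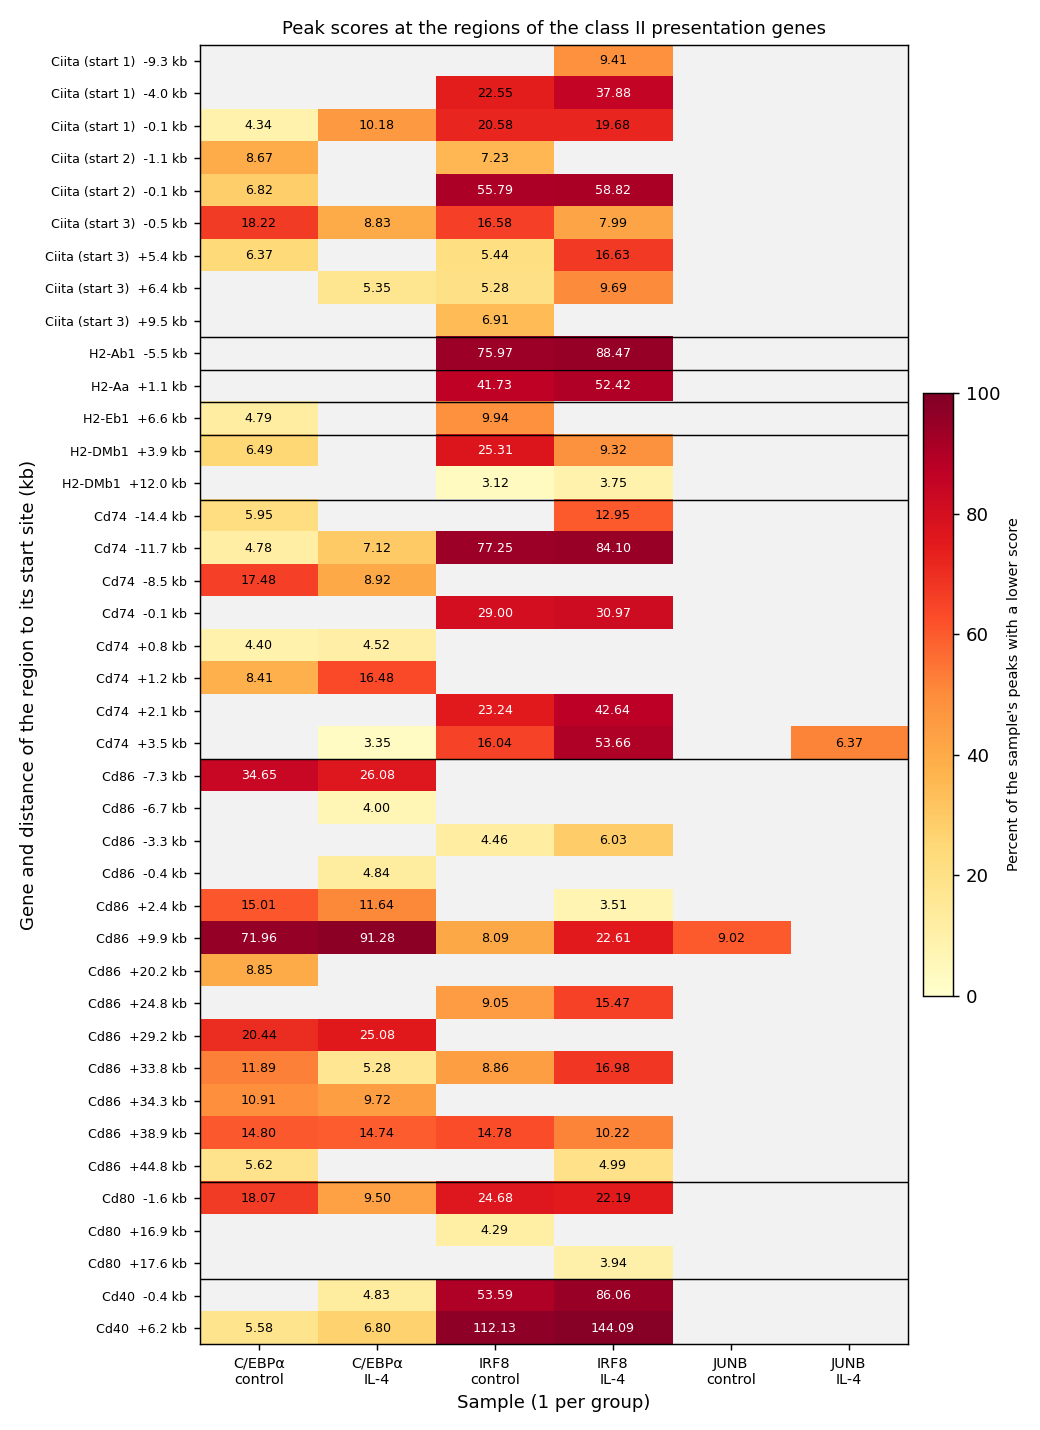
Highest peak score of each of the 40 regions (rows, by gene and in the direction of transcription, with the distance to the annotated start in kb) in the 6 samples (columns, 1 sample per group). The number is the peak score, the colour is the percent of that sample's peaks with a lower score, and grey marks no peak. IRF8 fills most rows, the C/EBPα columns are strongest at Cd86 with 71.96 and 91.28, and JUNB has 1 row in each condition.

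Ciita encodes the transactivator without which class II genes are hardly expressed, and it is transcribed from alternative promoters used in different cell types. IRF8 peaks lay at all 3 of its starts in the deposited annotation, in control and after IL-4. At the most upstream start (NM_001243760), the region chr16:10479654-10480258 scored 20.58 and 19.68 for IRF8 in control and IL-4, and the C/EBPα score there was 4.34 and 10.18, a fold of 2.35. The region over the middle start (NM_007575, chr16:10487861-10488275) held the highest Ciita scores, 55.79 and 58.82 for IRF8, above 90.5% and 91.2% of the respective lists. It also held a C/EBPα peak of 6.82 that was called in control alone. Just upstream of the most downstream start (NM_001243761), at −510 bp, the region chr16:10489092-10489460 scored 16.58 and 7.99 for IRF8 and 18.22 and 8.83 for C/EBPα. The scores of both factors were thus lower after IL-4 at this start, with folds of 0.482 and 0.485, while at the other two starts IRF8 stayed at folds of 0.956 and 1.05. No Ciita peak was called for JUNB, whose nearest peaks lay 43567 bp (control) and 264854 bp (IL-4) from a Ciita coding transcript's start and carried other gene names.

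The centres of these promoter regions, 200 bp each on the plus strand of mm10 (the strand of Ciita), are shown because each held a match to a different set of letters. Capitals mark a STAT6-type site (TTC and GAA spaced by 3 or 4 bases) in the first, an ETS-IRF composite (GGAA, 2 bases, GAAA) in the second, and an AP-1 site (TGACTCA) in the third. Each match is a description of the letters and not of a bound site.
Ciita upstream start, chr16:10479857-10480056: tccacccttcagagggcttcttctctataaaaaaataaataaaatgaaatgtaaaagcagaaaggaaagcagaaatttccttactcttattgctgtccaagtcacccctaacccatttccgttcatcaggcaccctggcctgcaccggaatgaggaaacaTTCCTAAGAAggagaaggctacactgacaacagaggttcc
Ciita middle start, chr16:10487969-10488168: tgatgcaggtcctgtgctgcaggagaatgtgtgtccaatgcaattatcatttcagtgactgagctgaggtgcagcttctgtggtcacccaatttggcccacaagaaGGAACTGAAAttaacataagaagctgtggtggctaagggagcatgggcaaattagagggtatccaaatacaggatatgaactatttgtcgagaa
Ciita downstream start, chr16:10489177-10489376: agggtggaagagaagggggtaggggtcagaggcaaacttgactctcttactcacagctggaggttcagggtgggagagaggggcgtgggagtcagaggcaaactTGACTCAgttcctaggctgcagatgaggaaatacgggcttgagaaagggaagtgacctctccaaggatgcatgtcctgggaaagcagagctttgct
Only the upstream of these windows held a STAT6-type match, letters found in 14.4% of the windows of all regions. Its C/EBPα score was the one that was higher after IL-4, and a link between the match and the score was not tested.

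The remaining 6 Ciita regions lay within 10000 bp of a start. At −3958 bp (chr16:10475938-10476291), IRF8 scored 22.55 in control and 37.88 after IL-4, a fold of 1.68. Further upstream at −9303 bp, IRF8 scored 9.41 after IL-4 alone. In the first intron, at 5378 bp and on an RLTR35B_MM long terminal repeat, IRF8 scored 5.44 and 16.63, whereas C/EBPα scored 6.37 in control alone. The neighbouring region at 6388 bp showed IRF8 at 5.28 and 9.69 and C/EBPα at 5.35 after IL-4 alone. Further peaks called in control alone were those at −1120 bp (C/EBPα 8.67, IRF8 7.23) and at 9539 bp (IRF8 6.91). Of the 6 paired IRF8 peaks of Ciita, 3 thus had an IL-4 score at least 1.5 times the control score, beside 23.6% of all IRF8 pairs, and 1 a score lower by that factor, beside 17.5%.

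The class II chain genes held few regions, and IRF8 was present in every one of them, beside 81.6% of all regions. H2-Ab1 and H2-Aa encode the β and α chains of the I-A molecule, and each had 1 region, bound by IRF8 in both conditions. At H2-Ab1, the region chr17:34257386-34257948 scored 75.97 in control and 88.47 after IL-4, above 93.8% and 95.1% of the lists. The deposited distance to the H2-Ab1 start was −5528 bp, but the GENCODE annotation has the start of a further, non-coding H2-Ab1 transcript at the region, whose centre is at −22 bp from it. At H2-Aa, IRF8 scored 41.73 and 52.42 in the first intron, 1075 bp from the start (chr17:34286498-34286899). C/EBPα and JUNB had 0 peaks named for either gene. H2-Eb1, the β chain of the I-E molecule, had 1 region in its second intron at 6589 bp (chr17:34312360-34312553), with an IRF8 score of 9.94 and a C/EBPα score of 4.79. Both H2-Eb1 peaks were called in control and neither after IL-4, when the IRF8 peak nearest to an H2-Eb1 coding start lay 18972 bp away and carried the name H2-Aa.

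The H2-Aa window is shown as the class II chain region with an ETS-IRF composite. On the plus strand of mm10 the match reads TTTCACTTCC, which is GGAAGTGAAA on the minus strand, the strand of H2-Aa.
H2-Aa intron 1, chr17:34286599-34286798: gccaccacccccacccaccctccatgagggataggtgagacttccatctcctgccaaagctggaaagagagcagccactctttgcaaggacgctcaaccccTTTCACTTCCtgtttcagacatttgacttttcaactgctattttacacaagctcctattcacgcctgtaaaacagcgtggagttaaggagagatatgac
The H2-Ab1 window, whose IRF8 scores were higher still, held no match to the ETS-IRF composite, to the ISRE-like letters (GAAA, 2 bases, GAAA) or to any other set searched apart from the loosest C/EBP letters (TTNCNNNAA).

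H2-DMa and H2-DMb1 encode the chains of the H2-DM chaperone. H2-DMb1 had a region in its second intron, at 3946 bp (chr17:34156994-34157295), where IRF8 scored 25.31 in control and 9.32 after IL-4, a fold of 0.368. This was the lowest fold among the 22 paired IRF8 peaks. A C/EBPα peak of 6.49 in the same place was called in control alone. A second H2-DMb1 region at 12020 bp, on an ORR1E repeat, had weak IRF8 peaks, 1.42 and 3.12 in control and 3.75 after IL-4. H2-DMb1 has a close copy beside it, H2-DMb2, and how reads that fit both were treated is not given in the sources used here, so values at either are uncertain.

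Naming peaks by the nearest start left out much of the class II cluster. Between the outer ends of H2-DMa and H2-Eb1 (chr17:34119541-34316674, 197.1 kb), 17 regions were found, and 5 of them carried a member's name. The strongest carried other names. A region between H2-DMa and H2-DMb1, named for H2-DMb2, scored 106.7 and 149.78 for IRF8 and 38.3 and 60.07 for C/EBPα, and its JUNB score of 2.86 was the only JUNB peak in the cluster. At Psmb8 and Psmb9, immunoproteasome subunits of the class I pathway that lie inside the cluster, IRF8 reached 137.35 and 159.62, and 94.38 and 136.22. Beyond H2-Eb1, at 84.68 kb from the H2-Ab1 start, a region named for the pseudogene H2-Ea-ps had IRF8 scores of 190.79 and 180.22, and another at 77.89 kb had C/EBPα scores of 102.99 and 114.64. The region named for H2-Ab1 thus ranked below several neighbours that the rule for members left out.

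**Figure D2:**
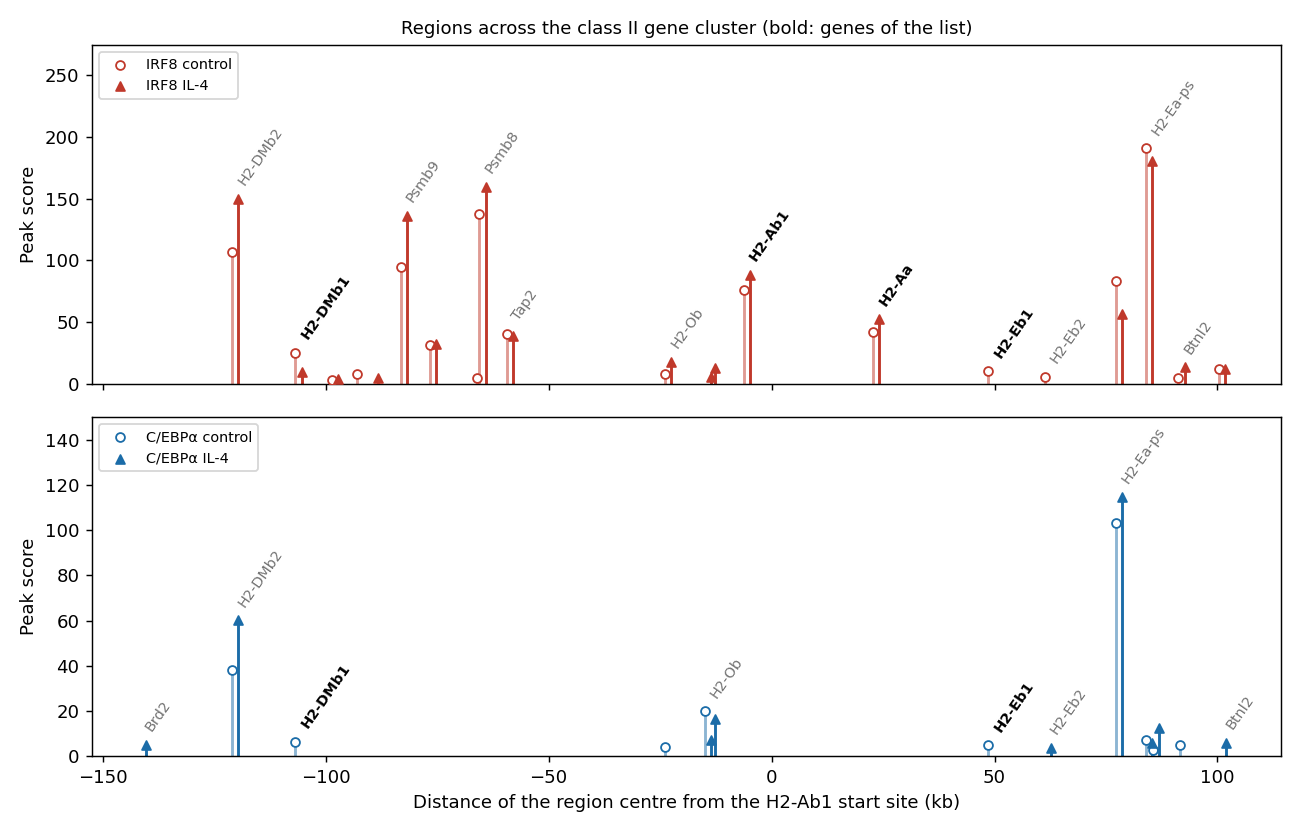
Peak scores of IRF8 (upper panel) and C/EBPα (lower panel) at regions across the class II gene cluster and its flank, against the distance of the region centre from the H2-Ab1 start in kb. Open circles are the control sample and filled triangles the IL-4 sample, offset sideways so that both can be seen, and gene names mark the strongest region of each name. The bold names reach at most 88.47 for IRF8 and 6.49 for C/EBPα, below the neighbours H2-DMb2 and H2-Ea-ps.

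The promoter sequences supplied with the RefSeq annotation of GRCm38.p6 (windows that span a start) covered 5 of the 10 members (Cd80, H2-Aa, H2-Eb1, H2-DMa and H2-DMb1), with 6 promoters. None of these 6 was overlapped by a peak in any list. The Y box letters CTGATTGG, part of the class II promoter module that NF-Y binds, were found on either strand in the promoters of H2-Aa and H2-Eb1 and in 4.09% of the 32815 promoters of the table. The shorter ATTGG, which the Y box letters contain, was found in 4 of the 6 (H2-Aa, H2-DMa, H2-DMb1 and H2-Eb1) and in 37.4% of all.

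Cd74, the invariant chain gene on chromosome 18, had 8 regions and 20 peaks, with IRF8 and C/EBPα mostly in different places. The highest IRF8 scores, 77.25 in control and 84.1 after IL-4, lay upstream at −11709 bp on an L2 repeat (chr18:60791948-60792333), where C/EBPα scored 4.78 and 7.12. At the promoter, at −107 bp, IRF8 alone was present, with 29.0 and 30.97. Inside the first intron IRF8 scored 23.24 and 42.64 at 2080 bp and 16.04 and 53.66 at 3531 bp. The latter was the largest fold among the paired IRF8 peaks of the members (3.35), and the same region gained a C/EBPα peak of 3.35 and a JUNB peak of 6.37 after IL-4. C/EBPα without IRF8 was found at −8537 bp (17.48 and 8.92), at 842 bp (4.4 and 4.52) and at 1235 bp (8.41 and 16.48). At −14450 bp C/EBPα scored 5.95 in control alone and IRF8 12.95 after IL-4 alone.

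All 4 paired IRF8 peaks of Cd74 scored higher after IL-4, with folds from 1.07 to 3.35, beside 55.4% of all IRF8 pairs and their median fold of 1.06. The paired C/EBPα peaks ran from 0.51 at −8537 bp to 1.96 at 1235 bp. The region at 3531 bp was the only member region whose JUNB peak was called after IL-4.

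Cd86 held the most regions (13) and peaks (32) and was the locus where C/EBPα was strongest. Its 9 C/EBPα control peaks were matched or exceeded by 3.92% of the 9327 genes named in that list. That count was not adjusted for the length of a gene, and peaks named Cd86 extended to 44821 bp from its start. In the first intron at 9941 bp (chr16:36655851-36656500), C/EBPα scored 71.96 in control and 91.28 after IL-4, above 95.5% and 97.1% of the lists. IRF8 scored 8.09 and 22.61 in that region, with a further control peak of 3.78, and JUNB scored 9.02 in control alone. Apart from the Cd74 region at 3531 bp, this was the only member region with all 3 factors. Upstream at −7276 bp (chr16:36673079-36673543), C/EBPα scored 34.65 and 26.08, without an IRF8 peak. At the promoter, at −436 bp, a C/EBPα peak of 4.84 was called after IL-4 alone.

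The Cd86 region at 9941 bp is shown as the strongest C/EBPα region of the list. Capitals mark TTGCNNAA, the spacing of a palindromic C/EBP site, read on the minus strand, the strand of Cd86. These letters were added after the values had been seen. The AP-1 letters were not found in the window, which covered only part of the JUNB peak called in this region in control.
Cd86 intron 1, chr16:36656076-36656275: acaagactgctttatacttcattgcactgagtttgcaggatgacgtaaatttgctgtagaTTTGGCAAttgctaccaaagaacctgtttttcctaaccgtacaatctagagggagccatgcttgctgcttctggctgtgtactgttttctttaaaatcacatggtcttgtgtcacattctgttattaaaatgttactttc

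Within 10000 bp of the start Cd86 had 3 further regions, at 2353 bp (C/EBPα 15.01 and 11.64, IRF8 3.51 after IL-4 alone), at −3317 bp (IRF8 4.46 and 6.03) and at −6692 bp (C/EBPα 4.0 after IL-4 alone). Deeper in the gene, at 33815 bp on an L1MB3 repeat, C/EBPα went from 11.89 to 5.28 while IRF8 went from 8.86 to 16.98. At 38915 bp neither moved by 1.5-fold, with C/EBPα at 14.8 and 14.74 and IRF8 at 14.78 and 10.22. At 44821 bp a C/EBPα peak of 5.62 was called in control alone and an IRF8 peak of 4.99 after IL-4 alone. The 4 other intronic regions had scores from 8.85 to 25.08, and none of them held both IRF8 and C/EBPα.

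Cd80, the other CD28 ligand, had 1 strong region, at −1566 bp (chr16:38457166-38457560). IRF8 scored 24.68 and 22.19 there and C/EBPα 18.07 and 9.5. Its 2 intronic regions were single IRF8 peaks of 4.29 in control and 3.94 after IL-4.

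Cd40, a receptor of the tumour necrosis factor family, had 2 regions, 1 of them with the highest IRF8 scores of any member. In the first intron at 6175 bp, on a MER113 repeat (chr2:165061498-165062332), IRF8 scored 112.13 in control and 144.09 after IL-4, above 96.9% and 98.2% of the lists. C/EBPα scored 5.58 and 6.8 in the same region, with a further IL-4 peak of 2.82. Upstream of the start at −405 bp (chr2:165055013-165055450), IRF8 scored 53.59 and 86.06, a fold of 1.61, and C/EBPα scored 4.83 after IL-4 alone. This was the only member window with the ISRE-like letters, in capitals below on the plus strand of mm10, the strand of Cd40. It also held the STAT6-type match TTCCTTGAA.
Cd40 promoter, chr2:165055132-165055331: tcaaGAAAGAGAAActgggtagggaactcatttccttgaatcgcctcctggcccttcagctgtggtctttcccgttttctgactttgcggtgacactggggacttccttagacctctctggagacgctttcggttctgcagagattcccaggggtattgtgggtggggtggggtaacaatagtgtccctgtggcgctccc

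**Figure D3:**
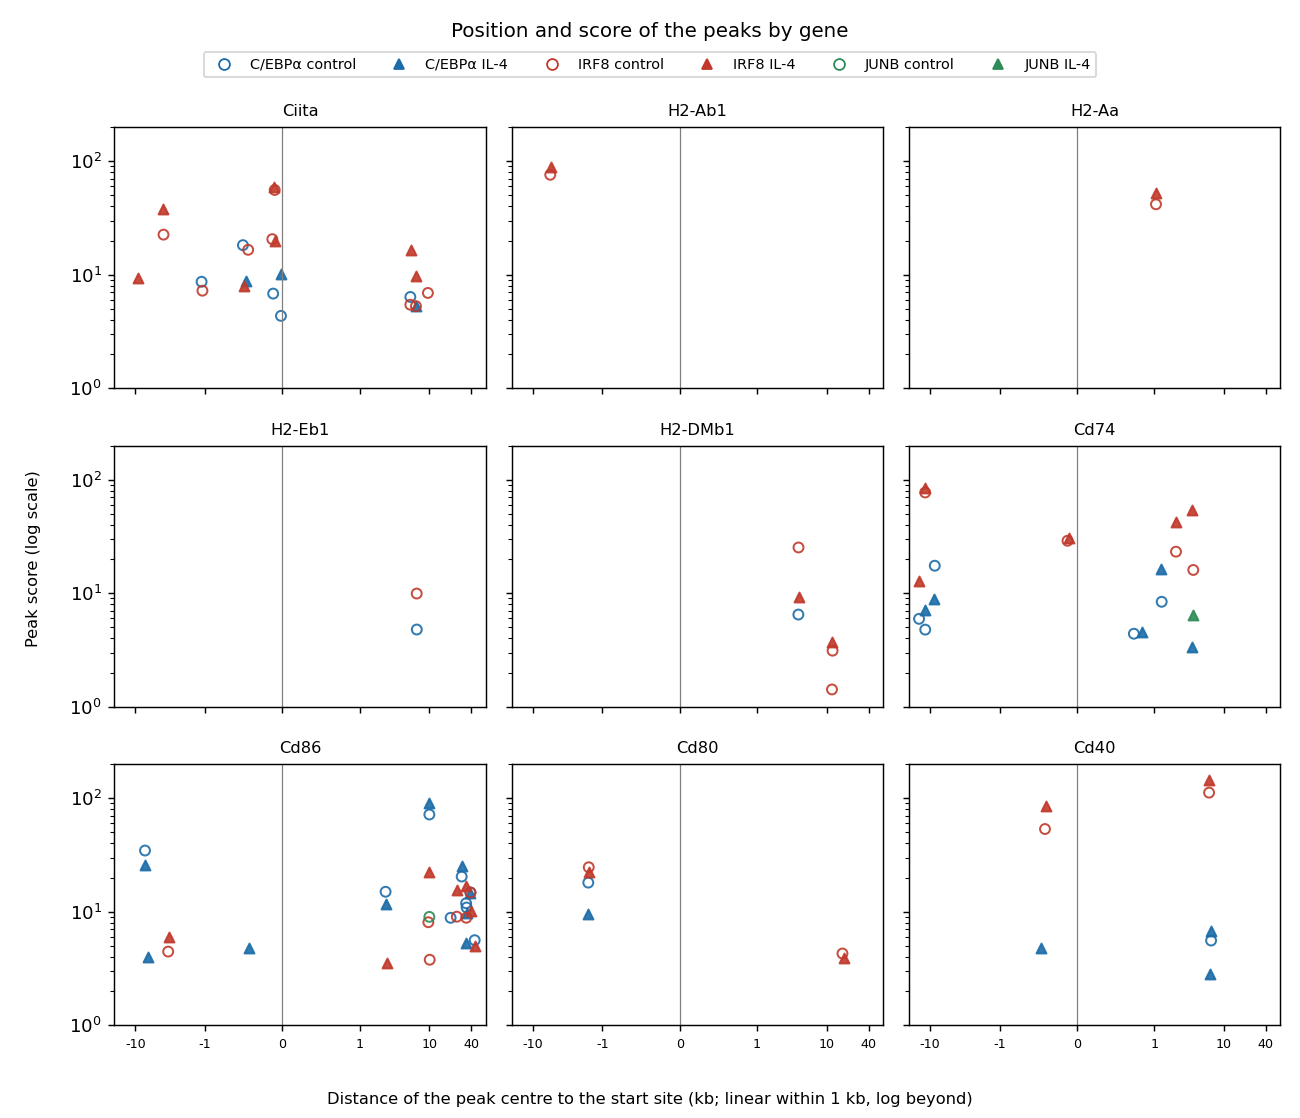
Peak score (log scale) of each member peak against the distance of its centre to the annotated start in kb (linear within 1 kb, log scale beyond), 1 panel per gene with peaks. Colour gives the factor, open circles the control and filled triangles the IL-4 sample. IRF8 reaches 144.09 at Cd40, C/EBPα reaches 91.28 at Cd86, and Cd86 peaks extend to 44821 bp.

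Across the members, IRF8 and C/EBPα often shared a region. Of the 40 regions, 31 held an IRF8 peak in either condition (77.5%, Wilson 95% interval 62.5% to 87.7%), beside 81.6% of all regions, and 28 held C/EBPα (70.0%, 54.6% to 81.9%), beside 48.4%. Both factors were found in 19 (47.5%, 32.9% to 62.5%), beside 30.7% of all, with peaks of both conditions pooled. The 19 include Cd74 at −14450 bp and Cd86 at 44821 bp, where C/EBPα was called in control alone and IRF8 after IL-4 alone. JUNB was found in 2 (5.0%), beside 7.90%. The same 2 regions held all 3 factors (5.0%), beside 5.56% of all. In the Cd74 region at 3531 bp, the C/EBPα peak of 3.35 scored above only 3.03% of its list. All 5 H2 regions held IRF8 and 2 held C/EBPα, whereas the 18 regions of Cd80, Cd86 and Cd40 held C/EBPα in 14 and IRF8 in 12. Regions of a gene share that gene's surroundings and are not independent, and these intervals cover counting error only.

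A larger share of the member peaks than of the lists lay near a start. Within 1000 bp of the start lay 19 of 101 (18.8%, Wilson 95% interval 12.4% to 27.5%), beside 10.5% of all peaks, and between 1000 and 10000 bp lay 51 (50.5%), beside 23.2%. None lay over 100000 bp away, where 13.0% of all peaks did. On the deposited annotation the 19 near peaks came from Ciita (11), Cd74 (4), Cd40 (3) and Cd86 (1). These counts pool all lists, so a site called for several factors or in both conditions is counted more than once. Such peaks are not independent. The Wilson interval covers counting error only and is too narrow for them, so the larger share is a description of the counts. By GENCODE starts, which include those of non-coding transcripts, 29 member peaks were near (28.7%, beside 17.9% of all peaks), and they then included both peaks of H2-Ab1, 3 of H2-DMb1 and all 8 of Cd40. H2-Aa, H2-Eb1 and Cd80 had 0 near peaks by either. Introns held 59 of the peaks (58.4%, beside 45.3%) and 28 lay on an annotated repeat (27.7%, beside 21.4%).

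The presence of peaks was then compared between conditions. For C/EBPα, 8 of 23 control peaks overlapped no IL-4 peak (34.8%, Wilson 95% interval 18.8% to 55.1%), beside 21.4% of the whole list, and 6 of 21 IL-4 peaks overlapped no control peak (28.6%, 13.8% to 50.0%), beside 22.0%. For IRF8, 4 of 28 were control-only (14.3%, 5.70% to 31.5%), beside 21.4%, and 5 of 27 were IL-4-only (18.5%, 8.18% to 36.7%), beside 30.4%. All 4 background values lay inside the intervals of the members. The single JUNB peaks, 1 control-only and 1 IL-4-only, stood against 64.2% and 39.2% of their lists. The C/EBPα control-only peaks were 3 at Ciita, 2 at Cd86 and 1 each at H2-Eb1, H2-DMb1 and Cd74, and the IL-4-only peaks were 2 at Cd86, 2 at Cd40 and 1 each at Ciita and Cd74. Scores of the C/EBPα control-only peaks ran up to 8.85.

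At peaks paired between conditions, the C/EBPα folds were centred near 1 and those of IRF8 above it. The median fold of the IL-4 over the control score was 0.996 at 15 C/EBPα pairs (quartiles 0.639 and 1.25), beside 0.997 at 19111 pairs of the whole list. An IL-4 score at least 1.5 times the control score was found at 2 of 15 (13.3%), beside 17.7% of all pairs, and the opposite at 4 (26.7%), beside 17.8%. For IRF8 the median was 1.32 at 22 pairs (quartiles 1.06 and 1.84), beside 1.06 at 29110 pairs. The IL-4 score was at least 1.5 times higher at 10 of 22 (45.5%, Wilson 95% interval 26.9% to 65.3%), beside 23.6% of all pairs. It was lower by that factor at 2 (9.09%, 2.53% to 27.8%), beside 17.5%. The share of all pairs lay below the first interval, but that interval covers counting error only. The pairs are not independent, as Ciita gave 6, Cd86 5 and Cd74 4 of the 22, and each list is 1 sample. IRF8 scored higher after IL-4 at 17 of the 22 pairs (77.3%, 56.6% to 89.9%), beside 55.4% of all. These 17 comprised 4 of 6 at Ciita, 4 of 4 at Cd74, 4 of 5 at Cd86, 2 of 2 at Cd40, 1 of 2 at H2-DMb1 and the pairs of H2-Ab1 and H2-Aa.

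The IRF8 folds were also read by the level of the pair, in ranges set after the values had been seen. Among pairs with a geometric mean score of 30 or more, 7 of 7 member pairs were above 1 with a median of 1.26, beside 1.06 and 59.0% of all such pairs. From 10 to 30, 6 of 11 were above 1, beside 55.1% of all, with a median of 1.07, equal to the median of all. Under 10, 4 of 4 were above 1, beside 53.3%, with a median of 2.24, beside 1.05. With a threshold of 2 in place of 1.5, 4 of the 22 IRF8 pairs were up (18.2%, 7.31% to 38.5%), beside 11.3% of all pairs, a share inside that interval. The opposite was found at 2 (9.09%), beside 7.96%. At that threshold 1 of the 15 C/EBPα pairs was up (6.67%, beside 7.72%) and 2 were down (13.3%, beside 6.56%). The 10 pairs past 1.5-fold included a score of 1.42 at H2-DMb1, the lowest member score, where the highest scores of the region gave a fold of 1.20. The IL-4 list of IRF8 was the longer one. The part of depth in these folds was not tested.

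**Figure D4:**
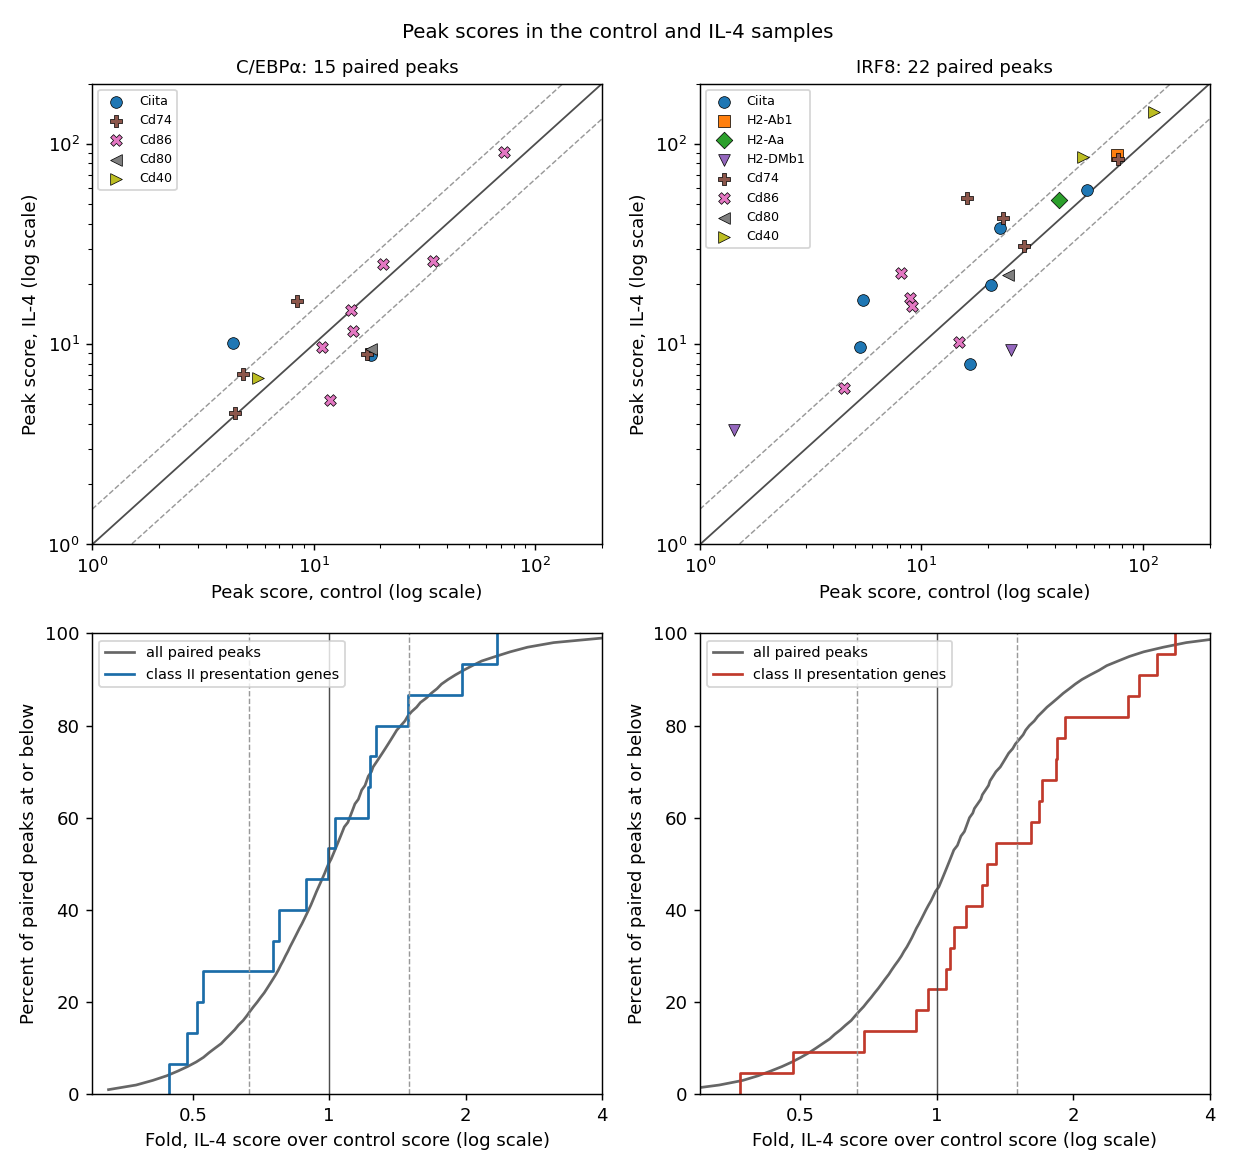
Upper panels plot the control against the IL-4 peak score (log scales) at the 15 paired C/EBPα and 22 paired IRF8 peaks of the members, with symbols by gene, the solid line at equal scores and dashed lines at 1.5-fold. Lower panels give the percent of pairs at or below each fold (log scale) for the members and for all pairs of the lists. The C/EBPα curves run close together near their medians of 0.996 and 0.997, while the IRF8 member curve lies to the right of the curve for all pairs (medians 1.32 and 1.06).

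Sequence letters under the regions were counted in 200 bp around each centre, on both strands, beside the same windows of 60836 regions. The ETS-IRF composite was found in 5 of 40 member windows (12.5%, beside 10.8%), at Cd74, Ciita and H2-Aa, and the ISRE-like letters in 1 (2.50%, beside 7.60%). AP-1 letters (TGACTCA or TGAGTCA) were found in 3 (7.5%, beside 10.9%), at Ciita and Cd86, and in neither of the member regions with a JUNB peak. The C/EBP letters were found in 2 (5.0%, beside 8.10%) in the form TTGCNNCAA or TTGCNNAAT, in 3 (7.5%, beside 18.4%) as TTGCNNAA, and in 18 (45.0%, beside 38.1%) in the loosest form TTNCNNNAA. ATTGG was found in 9 (22.5%, beside 21.9%) and the Y box letters in 0 (Wilson upper limit 8.76%, and up to 7.5% when 3 counts are taken as the limit), beside 0.741%.

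STAT6-type letters were found in 7 of 40 windows (17.5%, Wilson 95% interval 8.75% to 31.9%), beside 14.4%. They were unevenly placed among the members, a split examined after the values had been seen. Of the 10 member regions in which some factor had a peak after IL-4 alone, 6 held the letters (60.0%, 31.3% to 83.2%), and of the other 30 regions 1 did (3.33%, 0.591% to 16.7%). Over all regions the shares were 20.8% of 17869 and 11.8% of 42967. When the whole regions were searched, the first count was again 6 of 10 and the second rose to 4 of 30 (13.3%), beside 25.4% and 20.1% of all regions. The 6 were Ciita at −9303 bp and 6388 bp, Cd86 at −436, −6692 and 44821 bp, and the Cd40 promoter region. The remaining region was the upstream Ciita start, with folds of 2.35 for C/EBPα and 0.956 for IRF8. The peaks called after IL-4 alone in the 6 regions scored from 4.0 to 9.41. Regions of a gene are not independent. The intervals cover counting error only and make no allowance for a split chosen afterwards. A link between the letters and the peaks was not tested.

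Other genes of antigen presentation were counted in the same way. Of 19 class II partners, 18 had a peak, with 104 regions, most at March1 (17), Creb1 (15) and Lgmn (14), and their median IRF8 fold was 1.12. All 8 other co-signalling ligands had a peak, with 58 regions, led by Pdcd1lg2 (13), Tnfsf4 (11) and Vsir (9), and a median IRF8 fold of 1.17. All 14 class I genes had a peak, with 29 regions and a median IRF8 fold of 1.3, and the names with most regions were Psmb9 (4), Erap1 (4) and Nlrc5 (3). C/EBPα was found in 5 of the 29 class I regions, beside 48.4% of all regions, and IRF8 in 26, beside 81.6%. Of the IRF8 control peaks of class I genes, 14 of 24 lay within 1000 bp of a start (58.3%), compared with 5 of 28 for the members (17.9%).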

How the data were processed

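Peaks of 6 ChIP-seq samples (1 per factor and condition) were analysed. Per the study's methods and the submitters' processing notes, the authors aligned reads to mm10 with BWA 0.7.10, called peaks per sample with MACS2 2.0.10 under a q-value limit, removed blacklisted regions and annotated peaks with HOMER 4.2. SAMtools 0.1.19 is also named. The deposited peak score, the distance to the start site and the gene name were used as given. The score's unit, the control library, the depth and which of the 2 named library kits served which sample are not given in the sources used here.

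A minimum overlap of 1 bp made a control and an IL-4 peak of a factor shared, and such peaks were paired uniquely, largest overlap first. Touching peaks of the 6 lists were merged into regions, each given the highest score per sample and the distance of its highest-scoring peak. Regions were named when within 10000 bp of a start, when holding a gene's highest peak in a list, when 2 or more factors were gained or lost or were past 1.5-fold, or when holding all 3 factors. The outlying regions of H2-DMb1 and Cd80 fell outside that rule and were named after their values were seen. Of promoter peaks in all lists, 99.5% lay within 1000 bp of a GENCODE M21 start. Sequences were read from RefSeq GRCm38.p6, and 5 members matched its promoter table. With 1 sample per group no test was run. Shares carry Wilson 95% intervals, which cover counting error only. The members and lists were chosen with earlier results of these data known. Alternatives changed overlap, score threshold, rank matching, fold threshold, scaling, merging, distance and motif window. Overlaps were checked against bedtools 2.31.1, and values were computed with scipy 1.17.1, pandas 2.3.3 and numpy 2.4.6 in Python 3.11.15 (figures with matplotlib 3.10.9), and 41 of 41 checks on simulated data passed.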

Additional observations from a re-analysis of the deposited data

Results flagged for a closer look

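At 5 regions the factors moved in opposite directions between the control and the IL-4 sample, which was not tested because each factor had 1 sample per condition. At Cd74, −14450 bp, C/EBPα lost a peak of 5.95 and IRF8 gained one of 12.95. At Cd86, 44821 bp, C/EBPα lost a peak of 5.62 and IRF8 gained one of 4.99. At Cd86, 33815 bp, the C/EBPα score fold was 0.444 and that of IRF8 1.92. At Cd86, 9941 bp, the IRF8 fold was 2.79 while JUNB lost a peak of 9.02. At Ciita, 5378 bp, C/EBPα lost a peak of 6.37 and the IRF8 fold was 3.06. In all 5 the factor that went up was IRF8. The 5 made up 12.5% of the 40 member regions (Wilson 95% interval 5.46% to 26.1%), beside 4.50% of all 60847 regions. Members also had more regions in which 2 or more factors moved at all. Of 12 such member regions 5 were opposite, beside 2740 of 7338 over all regions. IRF8 went up in 59.6% of these 2740 opposite regions of the whole lists, and its IL-4 list was the longer one.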

How the results depend on the processing

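Of 72 alternative values, 55 stayed within 1.5 times the reported count or within the quartiles of the reported median, and 17 moved. Requiring a score of at least 5 left 3 IL-4-only C/EBPα peaks, 3 IL-4-only IRF8 peaks and 1 region with all factors. Requiring that the overlap cover at least 50% of both peaks raised the control-only IRF8 peaks to 8. Rank matching within IRF8 turned 4 control-only and 5 IL-4-only peaks into 6 of 28 and 3 of 24, beside 24.6% and 25.3% of all peaks kept. With a fold threshold of 2, 1 C/EBPα pair was up and 2 were down, and 4 IRF8 pairs were up, beside 11.3% of all IRF8 pairs. Limiting all lists to the size of the JUNB IL-4 list left 6 member regions, 4 with IRF8, 1 with C/EBPα, 0 with both and 0 with all factors, so no member region held both factors at those ranks. Promoter peaks numbered 29 both within 2000 bp and by GENCODE starts. Searching whole regions gave 2 ISRE-like and 16 ATTGG matches, and raised the STAT6-type letters in regions without a peak after IL-4 alone from 1 to 4 of 30. The median IRF8 fold ran from 1.23 (scores rescaled by the shared peaks' median) to 1.32. In place of the planned C/EBP letters, the letters added after seeing the data gave 3 regions. Depth is unknown, and its part in peaks called in 1 condition alone was not tested. No paired analysis was possible because each group had 1 sample.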

Other observations

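The class II cluster held IRF8 in 13 of its 17 regions in control, and C/EBPα in 5. After IL-4 alone, IRF8 was also called in the cluster at regions named Psmb9 (4.45) and H2-Ob (5.69 and 12.5). C/EBPα was called after IL-4 alone at regions named Brd2 (5.09) and H2-Ob (16.53). Over all regions, IRF8 was found in 81.6% and C/EBPα in 48.4%. Those shares count either condition, so the control counts of the cluster cannot be set against them. On the deposited annotation H2-DMa had no peak, yet the C/EBPα IL-4 list had a peak of 5.09, named Brd2, with its edge 423 bp from an H2-DMa coding start. By the same distance, the C/EBPα control peak nearest to H2-DMa was 5447 bp away and scored 31.38.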
